A study of Mus musculus with 14 samples.

Results

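The transcripts described are those of 8 rows of the gene table, Hspa8, its pseudogene copy Gm15459, Hspa1a, Hspa1b, Hsp90aa1, Hspd1, Hspe1 and Hspa9, of 19940 rows in all. They were chosen by gene symbol, as cytosolic and mitochondrial chaperones together with the Hspa8 copy, with the comparison between genotypes already known. Differences between genotypes in these 8 genes are therefore given as a description, with no test. All 8 reached at least 10 normalised counts in every library and passed the filter on low values, which kept 12096 genes.

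The RNA came from monocyte-derived macrophages sorted out of the CNS when experimental autoimmune encephalomyelitis was at its peak; this disease of mice serves as a model of multiple sclerosis. Hosts were irradiated with 2 doses of 5.5 Gy and received 2.5 M (M for mega) bone marrow cells from each of the 2 donor genotypes, so both macrophage populations developed in a shared host. The wt donors carried CD45.1, and the mCAT donors carried CD45.2 with CCR2creERT2/+ and mcat lsl/wt, that is, a tamoxifen-inducible Cre at Ccr2 and a Cre-dependent mitochondrial catalase. The labels list tamoxifen for all samples of either genotype, and the genotypes also differ in the CD45 allele and in the Ccr2 allele that carries the Cre. Since the Cre acts in cells that express Ccr2, the share of sorted mCAT cells that recombined is not known from these values. There were 7 libraries of each genotype. The library codes begin with C1 (8 libraries, 4 of each genotype) or C2 (6 libraries, 3 of each), and 6 code stems hold 1 library of each genotype. The labels do not say what C1, C2 or a stem stands for. Estimated depth was 16.5 M reads in wt 7 and 27.4 to 47.0 M in the other libraries. All 10 macrophage markers on the list used were measured and passed the filter, and their summed level was 1257400 to 6187390 in wt libraries and 1247250 to 5334480 in mCAT libraries (normalised counts).

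Chaperones bind unfolded or partly folded proteins and release them in cycles driven by ATP. Hspa8 (Hsc70) is the constitutive cytosolic HSP70, which also uncoats clathrin-coated vesicles and delivers proteins to lysosomes for chaperone-mediated autophagy. Hspa1a and Hspa1b encode the inducible HSP70, which the heat shock factor Hsf1 switches on under protein stress. Hsp90aa1 encodes the stress-inducible cytosolic HSP90, Hspd1 and Hspe1 the mitochondrial chaperonin HSP60 and its co-chaperonin HSP10, and Hspa9 the mitochondrial HSP70, mortalin. A processed pseudogene is a copy of a spliced messenger RNA that was inserted elsewhere in the genome, and Gm15459 is annotated as such a copy of Hspa8.

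Hspa8 (ENSMUSG00000015656) lies on chromosome 9 and Gm15459 (ENSMUSG00000100801) on chromosome 5. In the GENCODE M21 reference transcripts (GRCm38), all 1941 bases of Gm15459 aligned without a gap to the 2394-base Hspa8 transcript, with 5 mismatches (99.7% identity). The aligned stretch began at base 371 of Hspa8, its start codon, and ran to a stop codon at codon 647 in both sequences, with no earlier stop in frame, so it spans the whole Hspa8 reading frame. Counted from 1 at the first base of the start codon, with the Hspa8 base first, the mismatches are G114A, C414T, C549T, G1222A and C1440T. Of these, 4 fall on the third position of a codon, and G1222A falls on the first. The first mismatch and G1222A are shown with 15 reference bases on each side, with the differing base in capitals, because within the aligned stretch only reads over such positions tell the transcripts apart.
Hspa8, positions 99 to 129: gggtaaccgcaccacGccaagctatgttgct
Gm15459, positions 99 to 129: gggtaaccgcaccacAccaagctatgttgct
Hspa8, positions 1207 to 1237: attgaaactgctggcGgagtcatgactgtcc
Gm15459, positions 1207 to 1237: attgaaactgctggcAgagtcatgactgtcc

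Of the 1792 windows of 150 bases (the read length) in Gm15459, 1093 (61.0%) were identical to a stretch of Hspa8. The reads are paired, and a pair can be told apart when either of its reads covers a mismatch. The share of pairs that cannot be told apart was not counted. The longest run of the alignment with no mismatch was 672 bases. The reference also holds an antisense transcript, Gm26825, that contains 95.2% of the Gm15459 windows. The gene table has no row under the gene identifier of Gm26825, so its level is not known here. The libraries keep no strand, so reads from it and from Gm15459 cannot be told apart. The division of reads between Hspa8 and its copies is thus an estimate of the quantification tool, and single-row values of these genes are uncertain to that extent.

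**Figure D1:**
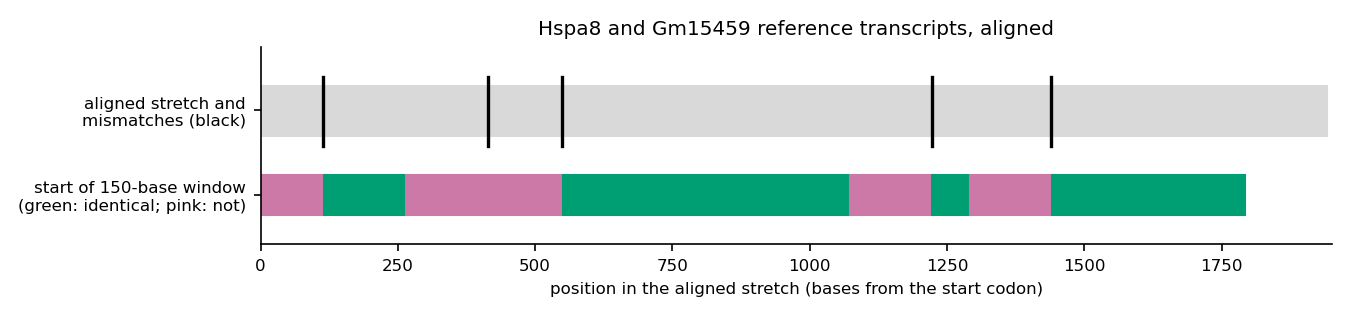
Upper bar: the 1941 aligned bases of Hspa8 and Gm15459, with the 5 mismatches as black lines, against position in bases from the start codon. Lower bar: start positions of 150-base windows, green where the window is identical in Hspa8 (1093 of 1792) and pink where it is not; identical windows run in 4 separate stretches.

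Hspa1a (ENSMUSG00000091971) and Hspa1b (ENSMUSG00000090877), both on chromosome 17, are likewise near-identical. Their transcripts shared 99.2% identity over 2201 bases, and 1074 of the 2818 windows of 150 bases in Hspa1a (38.1%) occurred unchanged in Hspa1b. Hspd1 (ENSMUSG00000025980) and Hspe1 (ENSMUSG00000073676) are neighbours on chromosome 1, and Hsp90aa1 (ENSMUSG00000021270) is on chromosome 12.

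RefSeq promoter windows (GRCm38.p6, 300 bases around the transcript start) were at hand for 4 of the 8 genes, Hspa1a, Hspa1b, Hspd1 and Hspe1. They are shown because these stress-response genes are classical targets of Hsf1, which binds inverted repeats of GAA. A 13-base motif of 3 such units (GAANNTTCNNGAA or TTCNNGAANNTTC, each the reverse complement of the other, so that both strands are covered) was found in 198 of 32851 windows (0.603%). It occurred at 2 overlapping places in the Hspe1 window, and 11 windows (0.0335%) held 2 or more. The second of 2 Hspd1 windows, on the other strand, overlaps the Hspe1 window by 285 bases and holds the same matches. The Hspa1a and Hspa1b windows, identical at 296 of 300 positions, held no match to the 13-base motif and 1 match each to its 8-base core (GAANNTTC or TTCNNGAA), a core held by 15.1% of all windows. A match is a description of the letters and not evidence of binding. Capitals mark the 13-base matches in Hspe1 and the 8-base match in Hspa1a.
Hspe1, chr1:55087898-55088197, plus strand: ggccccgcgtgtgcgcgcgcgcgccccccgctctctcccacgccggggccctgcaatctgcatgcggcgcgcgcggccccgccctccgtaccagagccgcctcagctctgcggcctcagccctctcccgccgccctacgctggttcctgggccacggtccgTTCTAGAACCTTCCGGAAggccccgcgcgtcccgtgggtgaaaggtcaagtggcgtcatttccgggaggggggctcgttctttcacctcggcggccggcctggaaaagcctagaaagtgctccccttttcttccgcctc
Hspa1a, chr17:34972107-34972406, minus strand: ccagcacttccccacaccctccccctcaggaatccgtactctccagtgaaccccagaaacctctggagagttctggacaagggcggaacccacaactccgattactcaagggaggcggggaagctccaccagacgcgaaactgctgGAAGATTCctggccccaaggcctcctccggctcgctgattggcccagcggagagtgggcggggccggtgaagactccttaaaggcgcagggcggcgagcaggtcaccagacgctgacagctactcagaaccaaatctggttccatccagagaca

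Hspa8 was among the most abundant messages of these macrophages, ranking 24th by mean level of the 12096 genes tested. Its normalised count ran from 138126 through a median of 159673 to 233854 in the 7 wt libraries, and from 139987 through 155095 to 178963 in the 7 mCAT libraries. The ranges overlapped, and the highest value belonged to wt 5. The means were 166740 ± 32259 (SD, n = 7) in wt and 158264 ± 14363 in mCAT, a log2 difference of -0.06 (SE 0.14), mCAT minus wt. Within the 6 pairs of libraries that share a stem, Hspa8 was higher in mCAT in 2. Scaled per kilobase of transcript, Hspa8 averaged 67879 normalised counts over all libraries, the highest of the 8 genes.

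Gm15459 separated the genotypes completely. It held 159 normalised counts at the lowest, 204 at the median and 675 at the highest in wt libraries, against 16396, 18119 and 23549 in mCAT libraries. No wt library came near the mCAT range, and the highest wt value was that of wt 7, the shallowest library. The mean was 286 ± 181 in wt and 19301 ± 2804 in mCAT libraries, 67.5-fold apart (log2 5.69, SE 0.20), and the ratio within the 6 pairs was 26.0 to 96.9 with a median of 83.2. In estimated reads, the wt values rest on 145 to 335 reads per library and the mCAT values on 13336 to 28007. Of all genes tested, 0.198% passed the test between genotypes (0.322% with the stem as a block) and 0.24% had non-overlapping groups. Among the 8 chaperone rows, 1, Gm15459, did either, and since it was chosen with this contrast known nothing is read from that count.

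Per kilobase, Gm15459 averaged 147 ± 93.3 in wt and 9944 ± 1444 in mCAT libraries. The mean of the inducible Hspa1a in mCAT libraries was 3808 ± 3523, and in mCAT 5 it lay above Gm15459, at 11431 against 11142. Added together, Hspa8 and Gm15459 gave normalised counts of 167026 ± 32336 in wt against 177565 ± 15857 in mCAT libraries, with overlapping ranges of 138284 to 234192 and 158106 to 200590. The sum was higher in mCAT in 4 of 6 pairs, by ratios of 0.857 to 1.12 with a median of 1.07. Gm15459 took 0.168% ± 0.095 of that sum in wt libraries and 10.9% ± 1.2 (9.17% to 12.6%) in mCAT libraries. Library wt 7 stood apart at 0.382%, and without it the wt share was 0.132% ± 0.014 (n = 6). Its estimated Gm15459 reads numbered 257, within the range of the other wt libraries, and its estimated depth was the lowest. Whether depth has a part in this share was not tested.

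**Figure D2:**
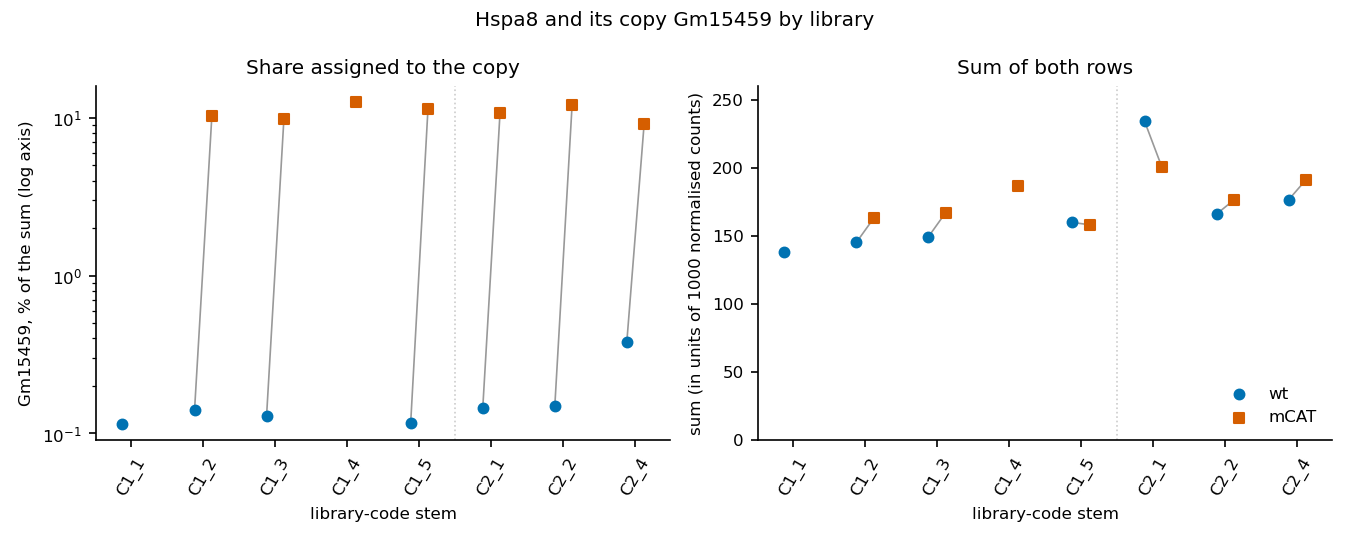
Left: Gm15459 as a percentage of Hspa8 plus Gm15459 (log axis); right: the sum of both rows in units of 1000 normalised counts, against library-code stem (circles wt, squares mCAT, lines join libraries of a stem, dotted line divides C1 from C2). The share lies between 9.17% and 12.6% in mCAT and at or below 0.382% in wt libraries, while the sums of the genotypes overlap.

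A sequence search found 9 other annotated Hspa8 copies with rows in the table, and none followed the pattern of Gm15459. Gm6210 (98.6% identity) ranged from 45.24 to 236 in wt libraries and from 35.5 to 88.0 in mCAT libraries, in normalised counts. Gm8355 (98.7%) held 12.1 to 159 and 16.6 to 45.3, and Gm7232 (96.5%) 8.81 to 43.6 and 8.69 to 25.1. The others, Gm8337, Gm8326, Gm7899, Gm8141, Gm15604 and Gm9436, stayed at or under 15.2 in every library. Library wt 7 gave the highest value in 7 of the 9 copies, and its summed level of 480 compares with at most 162 in the other wt and 179 in the mCAT libraries. Per 1000 Hspa8 counts, the 9 copies summed to 0.644 to 0.867 in wt without wt 7, to 2.73 in wt 7 and to 0.475 to 0.998 in mCAT libraries.

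The genes around Gm15459 and Hspa8 were examined by neighbourhood in GENCODE M21. Within 10 Mb of Gm15459, 27 other genes were tested and 0 passed between genotypes in the limma fit, with log2 differences of -0.30 to 0.68, the highest being that of Fzd1. Within 10 Mb of Hspa8, 116 genes were tested and 0 passed without pairing. With the stem as a block, 1 passed, Cadm1, a cell adhesion gene, with mean normalised counts of 48.2 ± 36.4 in wt against 239 ± 192 in mCAT (log2 1.21, SE 0.14, limma adjusted p = 0.000294, higher in 6 of 6 pairs). Over all genes tested, 0.198% passed without pairing and 0.322% with the stem as a block. Among so few neighbours these counts are no result about either neighbourhood.

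Hspa1a spread more widely between libraries than Hspa8, Hsp90aa1 or the mitochondrial chaperones. Its normalised count ran from 4460 through 7561 to 43851 in wt libraries and from 3781 through 7200 to 33914 in mCAT libraries, an 11.6-fold range over the 14. The 2 highest values were those of the partners of stem C2_1, wt 5 and mCAT 5, whereas every other library lay at or under 15612. Of the 4280 tested genes with a mean of 1000 or more, 1.43% spanned 10-fold or more. The genotypes overlapped almost entirely, with means of 13347 ± 14022 in wt and 11298 ± 10454 in mCAT (log2 -0.15, SE 0.53). The SE of 0.53 includes the spread between stems, and with the stem as a block the difference was -0.10 (SE 0.15). The mCAT library was the lower partner in 5 of 6 pairs, and the pair ratios ran from 0.651 to 1.85.

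Hspa1b varied with Hspa1a at a far lower level. Its normalised count was 44 to 833 in wt libraries (median 150) and 42 to 808 in mCAT libraries (median 117), a 20.04-fold range, and wt 5 and mCAT 5 were again the highest, with every other library at or under 450. The ratio of Hspa1a to Hspa1b was 34.7 to 102, and the 2 genes correlated at r = 0.98 over the 14 libraries. Because their sequences are shared in part, that ratio and correlation include how reads were divided between them. Per kilobase, Hspa1b averaged 86.5 normalised counts, the lowest of the 8 genes.

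Variation between stems was tested on the 12 libraries of the 6 complete stems, with genotype as a term, in a limma F-test over all genes that was added after the data had been seen. It called 23.4% of the genes tested, and 4 of the 8 chaperone rows. Hspa1a (F = 42.0, adjusted p = 4.33e-06) and Hspa1b (F = 40.2, adjusted p = 5.40e-06) differed between stems in the limma test and kept the call when any 1 stem was left out, with adjusted p up to 0.0218 and 0.00677. Hsp90aa1 (adjusted p = 0.0363) and Hspa9 (adjusted p = 0.0408) also passed in limma but lost the call under several alternatives, up to adjusted p = 0.140 for Hsp90aa1 without C2_1 and 0.229 for Hspa9 without C1_2. Hspa8 (limma adjusted p = 0.0883), Gm15459 (0.181), Hspd1 (0.176) and Hspe1 (0.227) did not pass.

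The partners of C2_1 had the 2 highest values of all 14 libraries in 4 of the 8 rows, Hspa8, Hspa1a, Hspa1b and Hsp90aa1, a pattern noticed in the data and held by 1.4% of genes tested. The margin was narrow for Hspa8 (178963 in mCAT 5 against 175796 in wt 7) and for Hsp90aa1 (13932 in wt 5 against 13220 in mCAT 3). Hspa1a and Hspa1b share sequence, so their rows are not independent. Other genes of the heat shock response, picked after their values were seen, were less uniform. Dnajb1, the J-domain partner of HSP70, held 4054 in wt 5 and 3347 in mCAT 5, against 2257 to 3802 elsewhere. Hsph1 (HSP110) held 1031 and 630, with other libraries as high as 1445, Bag3, an HSP70 co-chaperone, 486 and 551 against 411 to 723, and Hsf1 944 and 834 against 738 to 1281. None of these had both C2_1 libraries above the rest. Estimated depth of the C2_1 libraries was 38.9 and 42.7 M reads, inside the range of the others. Egr1, an immediate early gene that tissue dissociation can induce, held 4335 and 5176 in them, against 738 to 5438 elsewhere, and its part in the Hspa1a levels was not tested.

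**Figure D3:**
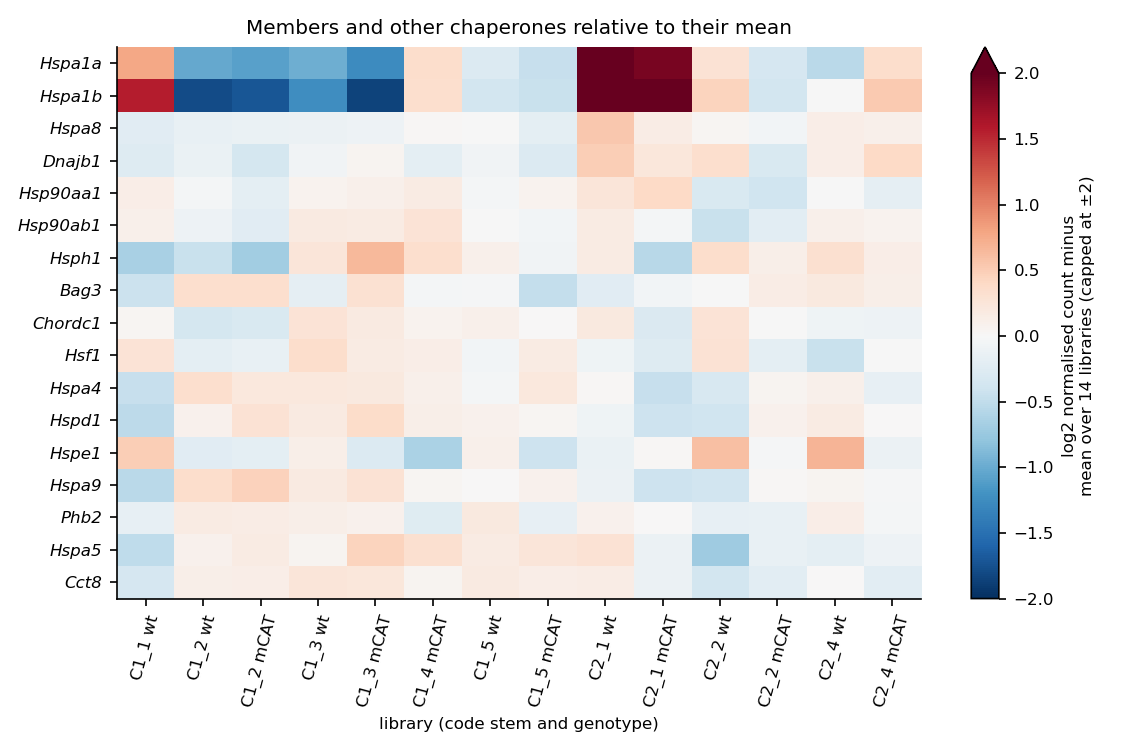
Log2 normalised count of 17 chaperone genes minus each gene's mean over 14 libraries (colour, red above and blue below, capped at 2 either way), with libraries ordered by stem. Hspa1a and Hspa1b are highest in the C2_1 pair and low in C1_2 and C1_3, while Hspd1 and Hspa9 vary alike and less.

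Hsp90aa1 was steady by comparison. Its normalised count was 9553 to 13932 in wt libraries (median 11716) and 9002 to 15510 in mCAT libraries (median 12459), and the means of 11923 ± 1368 and 11962 ± 2187 differed by less than their spread (log2 -0.01, SE 0.13). Its constitutive counterpart Hsp90ab1 was more abundant, at 38953 ± 5413 in wt and 38773 ± 5035 in mCAT libraries.

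In the mitochondrial group, the genotype means of Hspd1 and Hspa9 differed by less than their SDs, while Hspe1 had a lower mean in mCAT. Hspd1 had normalised counts of 2962 to 4813 in wt libraries (median 4539) and 3186 to 5492 in mCAT libraries (median 4520), with means of 4125 ± 752 and 4529 ± 739. Hspa9 (ENSMUSG00000024359, chromosome 18) held 4792 to 8864 (median 6970) and 5192 to 9585 (median 7136), with means of 6758 ± 1412 and 7364 ± 1371. Hspe1 held 1981 to 3721 in wt (median 2512) and 1494 to 2340 in mCAT libraries (median 2015), and the ranges overlapped. Its mean was 2795 ± 696 in wt and 1986 ± 300 in mCAT, 1.41-fold lower in mCAT (log2 -0.45, SE 0.15, or -0.34 with the stem as a block), and mCAT was the lower partner in every pair but C1_2 and C2_1.

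HSP60 and HSP10 work as a complex, and Hspd1 and Hspe1 are divergent neighbours, yet their transcripts did not track each other across libraries (r = -0.47 over 14). The ratio of Hspd1 to Hspe1 was 1.58 ± 0.54 in wt and 2.35 ± 0.59 in mCAT libraries. Hspd1 instead varied with Hspa9 (r = 0.93). The Hspe1 transcript is short, at 774 bases, whereas those of Hspd1 and Hspa9 have 2423 and 3049. Whether transcript length has a part in these patterns was not tested. Per kilobase, the averages over all libraries were 4153 normalised counts for Hspa1a, 3640 for Hsp90aa1, 3088 for Hspe1, 2316 for Hspa9 and 1786 for Hspd1, and the ranges over libraries of neighbours in this order overlap.

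**Figure D4:**
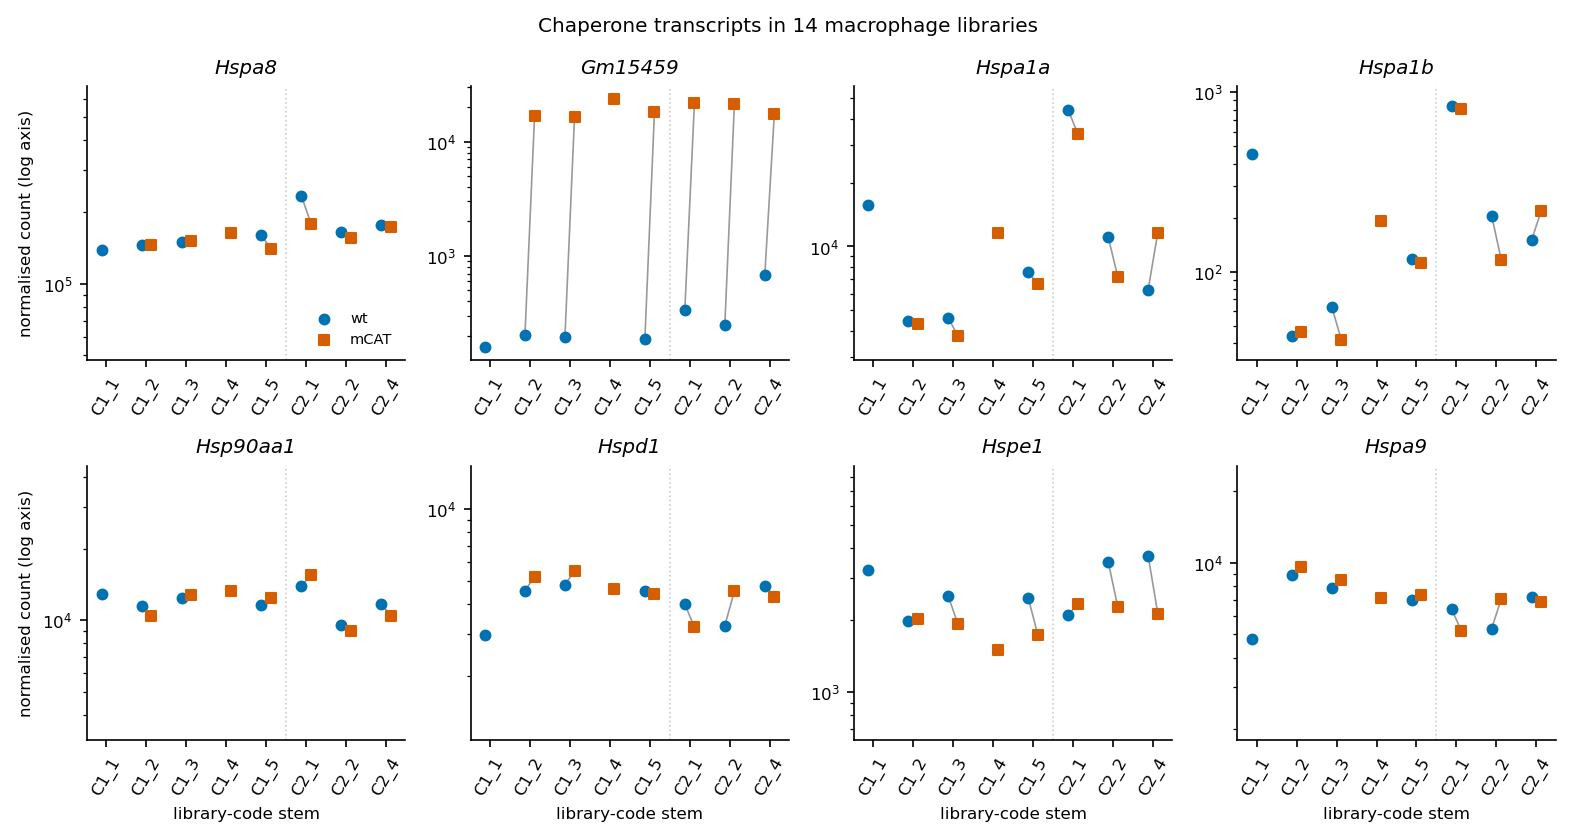
Normalised counts (log axes that differ between panels) of the 8 genes against library-code stem; circles are wt, squares mCAT, lines join libraries of a stem and the dotted line divides C1 from C2. The genotypes separate in Gm15459 alone (159 to 675 against 16396 to 23549), and C2_1 holds the highest Hspa1a and Hspa1b values.

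The code series C2 was compared with C1 with genotype as a term and stems as correlated blocks. In the limma fit, 2.71% of all genes passed and 0 of the 8 chaperone rows did, and 2 of 8 had an unadjusted p under 0.05, as did 17.1% of all genes. Hspa8 averaged 148997 ± 8836 in C1 (n = 8) and 180508 ± 27503 in C2 (n = 6), a log2 difference of 0.26 (SE 0.14, limma adjusted p = 0.349). Hspa1a averaged 7324 ± 4227 and 18986 ± 15867 (log2 1.02, SE 0.46, limma adjusted p = 0.261), and Hspa1b 133 ± 138 and 388 ± 337 (log2 0.89, SE 0.39, limma adjusted p = 0.253). Without stem C2_1 the difference was 0.17 for Hspa8, 0.32 for Hspa1a and 0.31 for Hspa1b. The interaction of genotype with code series called 0 genes in limma (339 at an unadjusted p under 0.05). Of the 8 rows, 1 was among these 339, Gm15459, with an interaction of log2 -0.60 (SE 0.27) that shrank to -0.22 (SE 0.19) without wt 7.

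Each gene's pattern over the 14 libraries was compared with all genes tested by Pearson's r on the deposited scale, as a description, since libraries of a stem are not independent. Hspa8 was most like Cacnb4 (0.86), Tnfsf9 (0.84) and Tnfaip8 (0.83), and Gm15459 most like Gm16867 (0.97), Lrmda (0.96) and Ppfia4 (0.96). Genotype was not taken out of these patterns. Because Gm15459 separates the genotypes, a high r with it includes that separation and does not show that genes vary together within a genotype. After Hspa1b, Hspa1a was most like Rsrp1 (0.90) and Mif4gd (0.89). Hspa1b was in turn most like Hspa1a, Mif4gd (0.92) and Pold4 (0.88). Hsp90aa1 was most like Cabp4 (0.92), Il1b (0.89) and Ifitm2 (0.89). Hspe1 varied with Rpl35a (0.95), Rpl22l1 (0.94) and Tbca (0.94), the first 2 of which are ribosomal protein genes. Hspd1 varied with Hspa9 and Zdhhc6 (0.93 each), and Hspa9 with Fig4 (0.94), Kat7 (0.94) and Cs (0.93), the last the citrate synthase gene. Hspa1a ran against Hspd1 (-0.72) and Hspa9 (-0.75).

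Beyond the 8 genes, 121 further chaperone and protein quality control genes were tested, and in the limma fit 0 passed between genotypes (2, or 1.65%, at an unadjusted p under 0.05; with pairing 0, and 6, or 4.96%). Over all genes tested, the limma fit called 0.198% (5.37% at an unadjusted p under 0.05), and with pairing 0.322% (9.23%), so 0 calls among 121 is no result about these lists. Their median log2 difference was 0.02, against -0.00 over all genes, and 119 of 121 lay within 0.5 of 0, as did 11969 of 12096 genes in all. The J-domain co-chaperones (0 of 18 called, median -0.00), the HSP90 group (0 of 15, -0.02), the mitochondrial chaperones and proteases (0 of 18, -0.07), the TRiC chaperonin and prefoldin (0 of 14, -0.08) and the nucleotide exchange factors (0 of 10, 0.06) all centred near 0. So did the cytosolic HSP70 and HSP110 family (0 of 8, 0.03), the small heat shock proteins (0 of 4, 0.09), Hsf1 and its relatives (0 of 4, -0.01), and the clearance genes (0 of 9, 0.07). The ER chaperones had a median of 0.13 (0 of 21 called). They include the largest difference of the 121, that of Hyou1, an ER HSP110-like chaperone singled out after its value was seen, with means of 381 ± 87.6 in wt and 750 ± 233 in mCAT libraries (normalised counts). Its log2 difference was 0.78 (SE 0.16, limma adjusted p = 0.0665), higher in mCAT in 5 of 6 pairs, and it passed only without mCAT 5 (limma adjusted p = 0.0381).

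The most abundant genes of the chaperone groups, named here, did not pass between genotypes. Hspa5, the ER HSP70, averaged 39893 ± 9434 in wt and 46312 ± 7766 in mCAT, Hspa4 5103 ± 958 and 5241 ± 827, Dnaja1 6066 ± 799 and 6087 ± 761, and St13 6486 ± 1277 and 6706 ± 748. Cct8 of the TRiC chaperonin averaged 11258 ± 1831 and 11195 ± 1339, Phb2 4904 ± 504 and 4553 ± 449, Hsbp1 5254 ± 693 and 4575 ± 761, and Hspb6 96.7 ± 38.6 and 97.8 ± 43.2. Of the 15 immediate early genes, which can be induced while tissue is dissociated, 1 passed between genotypes, Btg2, against 0.198% of all genes tested. With 1 gene, nothing is read from that count. Btg2 was lower in mCAT at 49817 ± 6158 against 87072 ± 16155 (log2 -0.79, SE 0.14, limma adjusted p = 0.0224). The genotypes also differ in the CD45 and Ccr2 alleles, and the part of these alleles or of dissociation was not tested. Dusp1, the most abundant of the 15 genes, averaged 188202 ± 49251 in wt and 215490 ± 21663 in mCAT. T cell markers summed to 216 to 759 normalised counts in wt libraries and to 132 to 289 in mCAT libraries. B cell markers summed to 93.2 to 725 and 56.7 to 523. Sums of some other lists were higher, at 16764 to 70142 and 26505 to 70438 for microglia. Neutrophil markers summed to 1805 to 5060 and 1791 to 7575, and erythroid markers to 347 to 13867 and 414 to 7441. The part of these cell types in any difference was not tested. In bulk samples, fewer cells of a type and less RNA per cell cannot be told apart.

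Between code series, 2 of the 121 genes (1.65%) passed in limma, against 2.71% of all genes, and fitted on 1 mean per stem neither did. Hscb, a mitochondrial iron-sulfur co-chaperone, rose from 514 ± 109 in C1 to 948 ± 300 in C2 (log2 0.75, SE 0.18, adjusted p = 0.0307 in limma, 0.137 on stem means). Xbp1, a transcription factor of the unfolded protein response, fell from 14252 ± 2357 to 8465 ± 2537 (log2 -0.77, SE 0.17, adjusted p = 0.0216 in limma, 0.127 on stem means). Without stem C2_1 the count of called genes among the 121 was 13 (10.7%), against 9.67% of all genes, and without C1_3, C1_4, C1_5, C2_2 or C2_4 it was 0. Egr1 among the immediate early genes was higher in C2, at 5012 ± 430 against 1282 ± 292. Between stems, 32 of the 121 (26.4%) passed, near the 23.4% of all genes.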

How the data were processed

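Gene expression was measured by Smart-seq2, a full-length method without strand, from polyadenylated RNA, as paired reads of 150 bases, per the labels' protocols. The submitters' processing notes name FastQC, fastp, Salmon and build GRCm39; versions and annotation are not stated in these notes. Although its title says raw counts, the deposited table holds log2 values with a common lowest value, the form of a variance-stabilising transformation. Inverting that form gave normalised counts; whole reads were not recovered, and depth is a rough estimate (65.2% to 77.4% of low values lay within 0.15 of a whole read). Depth describes counting error only.

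Genes with at least 10 normalised counts in at least 7 libraries were tested on the deposited values with limma 3.58.1 in R 4.3.3 (mean-variance trend, robust moderation; statmod 1.5.0), not with the count test that a table of raw counts would need. P-values were 2-sided, adjusted by Benjamini-Hochberg across the tested genes, and called under 0.05. Means and SDs are of normalised counts, and log2 differences are on the deposited scale, which compresses low values.

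Libraries that share a code stem deviated together from their group means (correlations of 0.232 to 0.659 in 6 of 6 stems), so stems were taken to pair libraries, which the labels do not state. By title, numbers 1 to 3 give other partners, with correlations of -0.294, 0.158 and 0.252. Since the first is negative, pairing by title number was tried only as an alternative. The last, 0.252, lies above the 0.232 of stem C2_1, and code series was not taken out of the deviations. Pairing by stem is therefore an assumption. The main genotype fit had no pairing; with the stem as a block, wt 1 and mCAT 3 have no partner and carry no information on genotype. The labels do not say that libraries came from separate animals, so p-values measure the spread between these libraries, which may be technical.

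The 8 genes, the lists, and the tests were chosen with earlier results of these data known. Named genes were the 8 members, their 3 most similar genes, list genes called between genotypes or code series (at most 3 a list), the most abundant gene of each list, and Hspa8 copies found with blastn 2.17.0 (at least 85% identity over 1000 bases). Of the genes this rule names, 2 are not reported here. Sequences came from GENCODE M21 and RefSeq, a build other than that of the files, so gene coordinates are not given. Alternatives tried were other normalizations, pseudocounts, filters, pairing and leaving out libraries or stems.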

Additional observations from a re-analysis of the deposited data

Results flagged for a closer look

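The share of Gm15459 in the sum of Hspa8 and Gm15459 was far from the other wt libraries in wt 7, at 0.382% against 0.115% to 0.149%. The gap to the nearest library was 0.873 of the whole wt range, above Dixon's 95% critical value of 0.568 for 7 libraries. It was the only library flagged in 22 groups of values checked, of which chance flags about 1 in 20. That does not mean that no other value stood apart. On normalised counts, Hspa1a held 43851 in wt 5 and at most 15612 in the other wt libraries. The 9 other Hspa8 copies summed to 480 in wt 7 and to at most 162 in the other wt libraries. Library wt 7 also had the lowest estimated depth, 16.5 M reads, and the highest level of 7 of the 9 other Hspa8 copies; their part in the share was not tested.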

How the results depend on the processing

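The count of genes called between genotypes was 24, between 18 and 25 when 1 library was left out, 25 with the title number as a replicate block and 39 with the code stem as a block, and the 39 included all 24. Pairing by stem changed no call among the 8 chaperone rows, but these were chosen with this contrast known, so nothing is read from that. The count between code series was 328; leaving out 1 stem gave 55 to 1170, without a block it was 903, and with stem means 51. The stem left out for the lowest count was C2_2 and for the highest C2_1, and the cause was not tested. The interaction called 0 genes under all 5 alternatives, of which the fit without wt 7 was chosen after seeing the data. No member passed between code series under any of 14 alternatives. Gm15459 differed by log2 5.56 to 6.24, the highest with a pseudocount of 1. The small Hspa8, Hspa1a, Hspa1b and Hsp90aa1 differences between genotypes crossed 0 when single libraries were left out. For variation between stems, Hspa8 passed only without C2_2 (adjusted p = 0.0472 in limma). Hsp90aa1 lost the call in 6 and Hspa9 in 4 of 10 alternatives. Depth limits Hspa1b and the copies most: Hspa1b rested on as few as 48.2 estimated reads.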
